A study of Caenorhabditis elegans with 4 samples.

Results

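The arms of 4 autosomes held 609 of the 1776 regions where LAG-1 peaks were called in Caenorhabditis elegans of the Bristol strain at the fourth larval stage, L4. Animals were synchronised by bleaching and fed NA22 bacteria, and the labels give no other treatment and no mutation. Chromatin immunoprecipitation with sequencing (ChIP-seq) against LAG-1 was done in 3 replicates, and 1 input DNA sample, taken without antibody, served as control for each. The cell type in the labels is germline, but the protocol speaks of animal lysates, so binding in germ cells and in other cells of the worm cannot be told apart. The file headers give the ChIP libraries a name containing Biotag, which no label explains, so the target is known from the labels alone and whether the worms carried a tagged protein is not stated. Arm peaks were chosen by position alone, as those whose summit lay outside the central stretch of chromosomes II, III, IV and V in the ce10 build. The stretches left out ran from 4880000 to 12020000 on II, from 3720000 to 10340000 on III, from 3900000 to 12970000 on IV and from 5900000 to 16550000 on V. Intervals of the 3 peak lists that overlapped by at least 1 bp were joined into regions. The arms, 33.9 Mb in all, held 1063 peaks over the 3 lists, and the centres of the same chromosomes, 33.5 Mb in all, held 1173 peaks in 642 regions.

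LAG-1 is the worm's CSL protein, the DNA-binding factor that turns a signal from Notch receptors into transcription of target genes. In the germline it works downstream of the receptor GLP-1, whose signal maintains stem cells. The arms of worm autosomes are known to be richer in repeats and transposons than the centres, to carry more heterochromatin marked by methylation of histone H3 at lysine 9, to lie nearer the nuclear envelope and to recombine more often, while the centres hold more of the conserved and broadly expressed genes. Which genes lie at the arm regions, and their sequence, were not analysed here.

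Arm peaks rested on few distinct tags. The peak caller kept 784774, 509715 and 1305672 tags in replicates 1, 2 and 3, after removing tags at the same position. The pileup of an arm peak, the number of extended tags stacked at its summit, had a median of 13, 10 and 26.5 tags in these replicates. For a single peak of median height, counting error alone gives 95% Poisson intervals of 6.92 to 22.2, 4.80 to 18.4 and 17.4 to 38.7 tags. Fold and pileup are the authors' values throughout.

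The arms held fewer LAG-1 peaks per Mb than the centres in every replicate. Replicate 1 had 394 peaks in the arms and 459 in the centres, or 11.6 and 13.7 per Mb. Replicate 2 had 397 in the arms and 417 in the centres, or 11.7 and 12.5 per Mb. Replicate 3 had 272 in the arms and 297 in the centres, or 8.02 and 8.87 per Mb. The mean log2 ratio of arms over centres was -0.16 ± 0.08 (SD, n = 3), a ratio of 0.896. An exact paired sign-flip permutation test, two-sided, gave p = 0.25, the smallest that 3 replicates allow (adjusted p = 1 over 4 such tests).

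The direction of this difference depended on how clustered peaks were counted. A block of peaks in the centre of IV, from 6086914 to 6123959, held 59, 36 and 55 peaks in replicates 1, 2 and 3. Without that block, a setting chosen after the data were seen, the ratio of arms over centres was 0.971, 1.03 and 1.11, with a mean log2 ratio of 0.05 ± 0.10 (SD, n = 3). The block was taken from the centres and no like cluster from the arms, so this removal could only raise the ratio. Counting peaks of a list within 10 kb of each other once left 226, 257 and 106 places in the arms and 199, 224 and 100 in the centres. By that count the arms were denser in 3 of 3 replicates, with ratios of 1.12, 1.13 and 1.05.

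The density ratio of arms over centre varied between the 4 chromosomes, but no test compared them. Only on IV did all replicates lie on the same side of 1. On V, known for its large clusters of chemoreceptor genes, the arms had 1.18, 0.988 and 1.56 times the density of the centre in replicates 1, 2 and 3 (mean 1.24 ± 0.292, SD, n = 3). On II the mean ratio was 1.09 ± 0.110 and on III it was 0.817 ± 0.215. On IV, whose centre holds the block, it was 0.617 ± 0.248, below 1 in every replicate. Without the block the ratio on IV was 1.03, 1.2 and 0.703 in replicates 1, 2 and 3 (mean 0.979 ± 0.253, SD, n = 3). By the mean over replicates the right arm of V was the densest arm, with 17.4, 12.1 and 14.9 peaks per Mb, though in replicate 2 the right arm of IV (13.3) and the left arm of III (12.9) were above it. With peaks within 10 kb counted once, the order changed. The fifth of the right arm of V next to the centre then had 6.86, 9.14 and 5.72 places per Mb, and the rest 5.72, 5.72 and 4.0. In the right arm of IV these were 7.74, 8.84 and 4.42, and 7.74, 9.12 and 2.76. By that count the right arm of V was not the densest in replicates 1 and 2. The left arm of III varied least, with 11.6, 12.9 and 12.6 peaks per Mb. The left arm of II varied most, with 10.5, 11.5 and 3.89 peaks per Mb, followed by the right arm of IV with 10.6, 13.3 and 5.31 peaks per Mb. Replicate 3 was the low one in both.

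**Figure D1:**
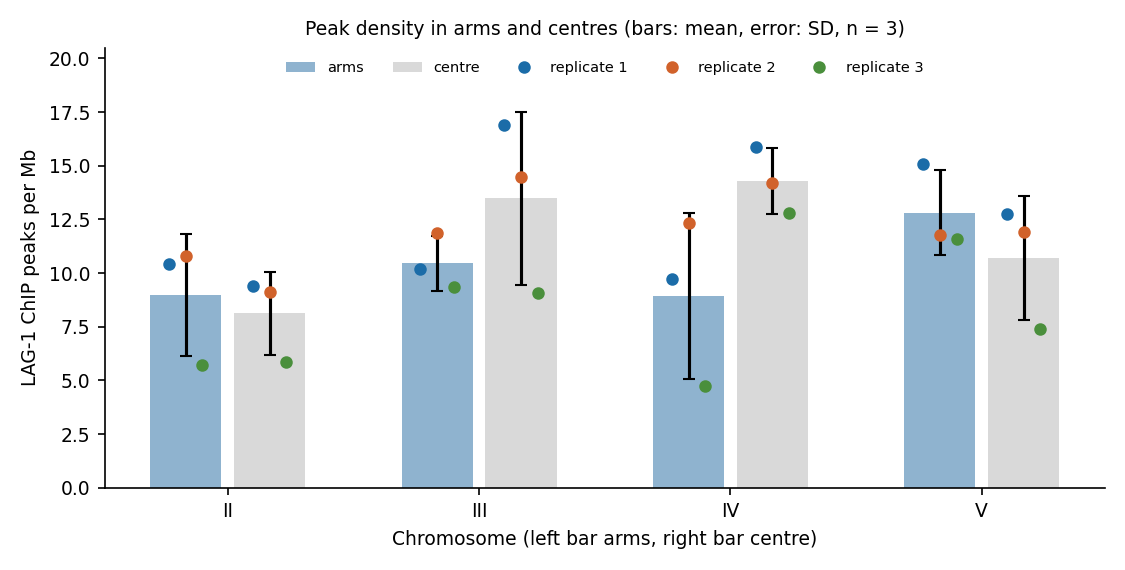
LAG-1 ChIP peaks per Mb (vertical axis) in the arms and in the centre of chromosomes II, III, IV and V, with bars at the mean of 3 replicates, error bars of 1 SD and a point for each replicate. On V the arms averaged 1.24 times the density of the centre, and on IV 0.617 times, or 0.979 times without the block in its centre.

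Within the arms, peaks were densest beside the centre. After the data were seen, each arm was divided into 5 equal segments from the chromosome end to the edge of the centre. The inner segment had 18.1, 15.9 and 15.2 peaks per Mb in replicates 1, 2 and 3, against 9.99, 10.7 and 6.23 in the outer 4 segments. The ratio of inner over outer was 1.82, 1.49 and 2.44, a mean of 1.92 ± 0.480 (SD, n = 3), above 1 in each replicate. No test is given, since the division was drawn from the same peaks. The outer 4 segments lay between 9.29 and 10.6 peaks per Mb in replicate 1, between 9.29 and 12.2 in replicate 2 and between 4.87 and 7.52 in replicate 3. There was thus a step at the inner segment and no steady gradient from the ends. Of the 111 arm regions found in all 3 lists, 46 lay in the inner segments and 65 in the outer ones.

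The right arm of V accounted for much of the step. Its inner segment, from 16550001 to 17424827, held 46, 27 and 44 peaks in replicates 1, 2 and 3, while the outer segments of that arm held 30, 26 and 21. This was 52.6, 30.9 and 50.3 peaks per Mb against 8.57, 7.43 and 6.0. The inner segment was also the denser one in every replicate in the left arm of II (mean ratio 2.67 ± 0.807), the right arm of III (5.39 ± 5.73) and the left arm of IV (2.42 ± 0.718). It was the sparser one in every replicate in the right arm of II (0.405 ± 0.330) and the left arm of III (0.677 ± 0.0262). In the right arm of IV (1.06 ± 0.267) and the left arm of V (1.16 ± 0.186) it was denser in 2 of 3 replicates (SD, n = 3 for each ratio). Without the right arm of V the ratio over the other 7 arms was 1.28, 1.23 and 1.59. With peaks within 10 kb counted once, the ratio over all 8 arms was 1.08, 1.14 and 1.17, so more peaks per place made up most of the step. By that count the left arms of II and IV and the right arm of V stayed above 1 in every replicate. The right arm of III (0.889, 1.0 and 1.6) did not. The right arm of II (0.222, 1.05 and 0.8) and the left arm of III (1.05, 0.8 and 0.615) were no longer below 1 in every replicate. Input was also deeper in the inner segments. Local background, the input depth that the peak caller set against each peak, had a median of 7.45, 2.83 and 7.79 times its genome-wide level under inner peaks, against 1.72, 1.59 and 5.31 times under outer peaks. The part of background in the step was not tested.

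**Figure D2:**
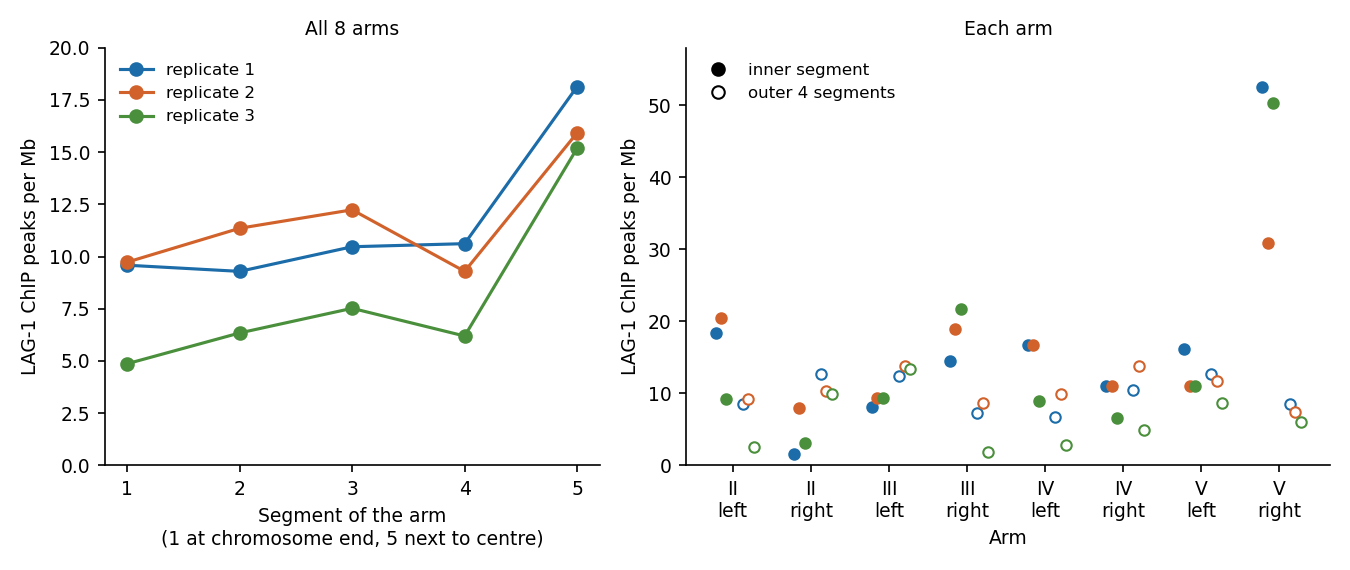
Left, LAG-1 ChIP peaks per Mb in each of 5 equal segments of the 8 autosome arms, from the chromosome end (1) to the edge of the centre (5), with a line for each replicate. Right, the same density in the inner segment (filled points) and the outer 4 segments (open points) of each arm, in the same colours. All 3 lines are highest next to the centre, and the inner segment of the right arm of V stands highest with 52.6, 30.9 and 50.3 peaks per Mb.

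Few arm regions recurred in every replicate. Of the 609, 111 (18.2%) had a peak in all 3 lists and are called shared, against 18.8% of all 1251 regions on these chromosomes and 124 of 642 (19.3%) in the centres. At least 2 lists had a peak in 186 arm regions (30.5%), against 33.7% of all regions and 236 (36.8%) in the centres. The shared fraction in the arms was near that of the chromosomes as a whole. The other 423 arm regions (69.5%) were found once, 218 of them in replicate 2, 164 in replicate 1 and 41 in replicate 3. Replicates 1 and 2 had 47 regions that replicate 3 lacked, while 15 were missing only from replicate 2 and 13 only from replicate 1.

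Replicate 3, with the fewest peaks, had the largest share of them in shared regions. A shorter list tends toward this by construction, since each shared region counts in every list. The share counts peaks, and 1 region can hold several peaks of a list. Peaks in shared regions numbered 166, 118 and 202 in the arms for replicates 1, 2 and 3, and 191, 142 and 199 in the centres. In the arms 42.1%, 29.7% and 74.3% of the peaks of replicates 1, 2 and 3 were in shared regions, and in the centres 41.6%, 34.1% and 67.0% were. The difference of arms minus centres was 0.520, -4.33 and 7.26 percentage points, a mean of 1.15 ± 5.82 (SD, n = 3; exact paired sign-flip permutation test, two-sided, p = 0.75, adjusted p = 1). The replicates went in both directions, so no difference beyond their spread was seen, and since a shared region counts in every list they are not fully separate.

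By arm, with 50 to 103 regions in each, the share of regions that recurred ranged from 10.1% to 28.7%, though no test of this was made. The single centres varied too, with 22%, 18.1%, 24.4% and 14.1% shared on II, III, IV and V. In the right arm of V 25 of 87 regions (28.7%) were shared, and in the left arm of III 16 of 63 (25.4%). In the left arm of II 9 of 89 (10.1%) were shared, in the right arm of III 7 of 61 (11.5%), and in the right arm of IV 11 of 92 (12.0%). Per Mb this was 5.72 shared regions in the right arm of V, 4.30 in the left arm of III, 1.84 in the left arm of II, 2.03 in the right arm of III and 2.43 in the right arm of IV. The left arm of V stood between with 22 shared regions, the right arm of II with 11 and the left arm of IV with 10.

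The height of arm peaks over input differed from that of centre peaks by less than the spread between replicates. Fold enrichment is the ratio of the ChIP pileup to the local input background, with a pseudocount of 1 on both terms. Its median over arm peaks was 4.79, 4.68 and 4.52 in replicates 1, 2 and 3, and over centre peaks 4.73, 4.80 and 4.50. The mean log2 ratio was -0.0034 ± 0.029 (SD, n = 3; exact paired sign-flip permutation test, two-sided, p = 1, adjusted p = 1). The replicates did not share a direction here either. The highest folds were 22.7, 50.9 and 22.0 in the arms and 39.3, 69.0 and 40.5 in the centres. Median peak width was 122, 186 and 128 bp in the arms and 134, 199 and 118 bp in the centres. With 1 tag kept per position and strand the pileup has a ceiling, and the highest arm pileup reached 59.1%, 43.2% and 84.5% of it in replicates 1, 2 and 3. Only 1 arm peak, in replicate 3, exceeded 80% of the ceiling.

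The input beneath arm peaks varied widely. Local background is stated relative to the genome-wide level, the lowest background the peak caller could use. That level was only 0.671, 0.708 and 0.798 tags in replicates 1, 2 and 3. High multiples of it are thus still low depths, and no counting error is given for background. Its median over arm peaks was 2.98, 1.77 and 6.96 times that level in replicates 1, 2 and 3, and over centre peaks 1.95, 1.94 and 3.76. The mean log2 ratio was 0.45 ± 0.53 (SD, n = 3), with the arms higher in 2 of 3 replicates (exact paired sign-flip permutation test, two-sided, p = 0.5, adjusted p = 1). Without the block on IV the ratio was 1.0, 0.763 and 1.29, and its mean log2 was -0.0056.

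Sorted by background, arm peaks lay in shared regions at a lower rate than centre peaks where background was low and at a higher rate where it was high. Where background was below 2 times the genome-wide level, 12.4%, 11.2% and 35.2% of the arm peaks of replicates 1, 2 and 3 were in shared regions, against 27.0%, 23.4% and 54.7% of the centre peaks. Where it was at or above that level, the shares were 68.4%, 51.4% and 88.1% in the arms and 56.3%, 44.7% and 75% in the centres. The differences of arms minus centres averaged -15.4 ± 3.71 percentage points on low and 10.6 ± 3.45 on high background (SD, n = 3). The split was chosen after the data were seen and a shared region counts in every list, so the replicates are not separate evidence and no test is given. Without the block on IV they averaged -9.05 ± 7.01 and 11.6 ± 2.14, with the same signs in each replicate.

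The shared regions showed the same split. Of 111 shared arm regions 80 (72.1%) had a background of 2 or more times the genome-wide level in every list, against 67 of 124 in the centres (54.0%). In 14 (12.6%) of the arm regions and 34 (27.4%) of the centre regions no list reached that level. Without the block on IV the centres had 65 of 103 (63.1%) on high and 19 (18.4%) on low background.

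**Figure D3:**
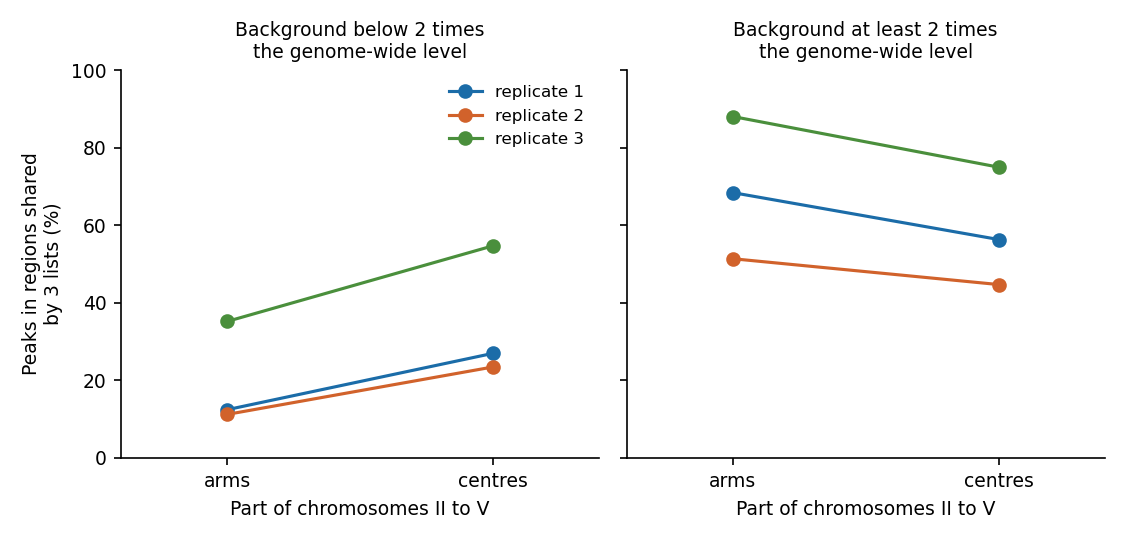
Percent of LAG-1 ChIP peaks in regions shared by the 3 lists, in the arms and the centres of chromosomes II to V, for peaks on input background below (left) and at or above (right) 2 times the genome-wide level, with a line for each replicate. On the left every arm point is below its centre point, as with 12.4% and 27.0% in replicate 1, and on the right every arm point is above it.

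Shared arm regions were mostly narrow. Their widths ran from 128 to 6623 bp with a median of 451 bp, and 24 exceeded 1 kb, all of them on high background in the 3 lists. The highest summits of the replicates lay within a median of 130 bp, and within 50 bp in 33 regions (29.7%). In shared centre regions the median was 140.5 bp, with 31 (25%) within 50 bp. Median folds were 6.17, 6.0 and 5.14 in replicates 1, 2 and 3, against 5.59, 5.64 and 5.38 in shared centre regions. Fold reached at least 5 in every replicate in 44 of the 111 arm regions and at least 10 in 3. Of the 124 shared centre regions, 47 and 6 did so. In 46 the highest fold was at most 1.5 times the lowest. Across the 111 regions, log2 fold had a Pearson's r of 0.557 for replicates 1 and 2, 0.648 for 1 and 3 and 0.582 for 2 and 3, and Spearman's rho 0.545, 0.631 and 0.592. In the 124 shared centre regions r was 0.768, 0.727 and 0.699, and rho 0.656, 0.649 and 0.617. These values describe regions, which are not replicates, and all folds share 1 input library. In a single arm region, log2 fold differed between a pair of replicates with an SD of 0.73, 0.52 and 0.71 for the same pairs.

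The 17 shared arm regions whose background was low in some lists and high in others stood out. They had median folds of 9.20, 11.8 and 6.50 in replicates 1, 2 and 3, and 11 of the 17 had summits within 50 bp, with a median spread of 38 bp. In 3 shared arm regions the highest fold was at least 4 times the lowest, and all 3 were of this mixed kind, with replicate 2 highest. These regions were picked after their values were seen. The backgrounds of all lists came from the same input library. They were recovered from pileup and fold, so the mixed class is not independent of the folds. The left arm region of II from 3290662 to 3290872 had folds of 10.4, 36.0 and 5.14 while its pileups were 51, 62 and 35 tags and its background was 5.96, 1.06 and 7.52 times genome-wide. The right arm region of V from 19528597 to 19528834 had folds of 3.12, 18.5 and 7.25, pileups of 24, 36 and 28 tags and a background 10.4, 1.41 and 3.76 times genome-wide. The third was the left end of IV. In both regions described, the folds differed more than the pileups did, and the fold, which is divided by background, was highest where the background was lowest.

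**Figure D4:**
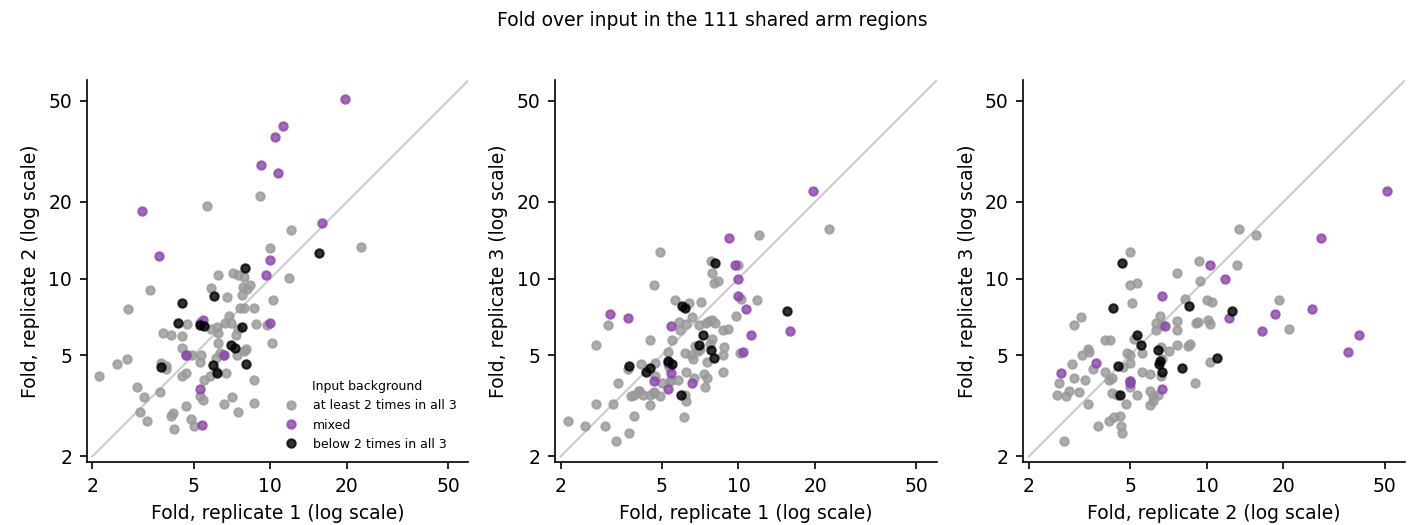
Fold enrichment over input at the highest summit of each of the 111 shared arm regions, with 1 replicate plotted against another on log axes, points coloured by input background and a line where both folds are equal. The points spread about the line, with r of 0.557, 0.648 and 0.582 from left to right, and the mixed regions lie farthest toward higher fold in replicate 2.

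The leading arm regions were ranked by fold among the shared arm regions of each replicate, and the 20 with the smallest worst rank are described here. Of these, 7 lay on III, all in its left arm, 5 on IV, 4 on II and 4 on V, the last all in the left arm. The right arm of V had none. Background was high in all 3 lists in 13 of the 20 and low in all 3 in 1. When arm and centre regions were ranked together, 8 of the leading 20 and 26 of the leading 58 were arm regions, while arms made up 47.2% of the 235 shared regions on these chromosomes.

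The left arm of III held the first. This region, at 3630270 to 3630840, lay 89160 bp from the edge of the centre. Fold there was 19.7, 50.9 and 22.0 in replicates 1, 2 and 3 (mean 30.9 ± 17.4, SD, n = 3), on pileups of 58, 86 and 44 tags, and its background was 2.98, 1.0 and 1.31 times genome-wide. It had the highest arm fold in replicates 2 and 3 and the second highest in replicate 1, and its summits agreed within 25 bp. A neighbouring pair on the same arm, at 1299684 to 1301205 and 1301280 to 1303002, had folds of 10.2, 8.25 and 8.33 in the first and 11.9, 10.1 and 8.23 in the second. Both lay over input above the genome-wide level, at 10.4, 9.89 and 10 times that level in the first and 8.94, 11.7 and 9.10 times in the second. Deeper still was the input at 931179 to 931724, with 14.9, 14.1 and 13.8 times that level, folds of 8.09, 9.09 and 6.67 and summits within 22 bp. The widest shared region of the arms of III, 4596 bp from 2497257 to 2501852, had folds of 7.88, 10.1 and 6.88 at summits 1318 bp apart. The region at 1017349 to 1020656 spanned 3308 bp, with folds of 8.66, 7.64 and 6.27 at summits 1644 bp apart.

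Chromosome IV held both narrow and broad leading regions. At 13549344 to 13549590 in the right arm, fold was 22.7, 13.3 and 15.7 (mean 17.2 ± 4.90, SD, n = 3). Each list had a single summit there and the 3 summits lay within 4 bp. Among shared arm regions 1 other, at 3994609 to 3994870 on the left arm of II, had as small a spread. At 2828475 to 2830632 in the left arm, fold was 12.1, 15.6 and 14.8 (mean 14.2 ± 1.84, SD, n = 3). This region was 2158 bp wide, held 12, 6 and 14 summits, and its highest summits were 1565 bp apart. In the right arm, folds were 9.67, 10.3 and 11.3 at 16656278 to 16656796 and 7.64, 7.62 and 6.83 at 15409310 to 15409785. The second of these had the steadiest fold of the 20 leading regions (SD 0.460).

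On V, fold was 10, 11.8 and 10 at 3686177 to 3686668 in the left arm, a mean of 10.6 ± 1.03 (SD, n = 3), with pileups of 39, 27 and 19 tags and summits within 25 bp. The pileups differed by more than the folds, since background was 4.47, 1.94 and 1.25 times genome-wide. Near the left end, the regions at 265013 to 265599 and 266060 to 266510 belonged to 1 cluster and had folds of 7.79, 9.30 and 11.7 in the first and 7.87, 7.67 and 10.5 in the second. Replicate 3 was highest in both.

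On II, the right arm region at 14489301 to 14489594 was the only leading one on low background in all 3 lists, at 1.0, 1.06 and 1.10 times genome-wide. Its folds were 15.6, 12.6 and 7.45 on pileups of 25, 21 and 13 tags, with summits within 44 bp. The left arm region at 2716910 to 2717062 had folds of 15.9, 16.5 and 6.20, and the right arm region at 12843764 to 12846150 had 9.09, 21.1 and 6.34. Replicate 3 was the lowest in all of these.

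**Figure D5:**
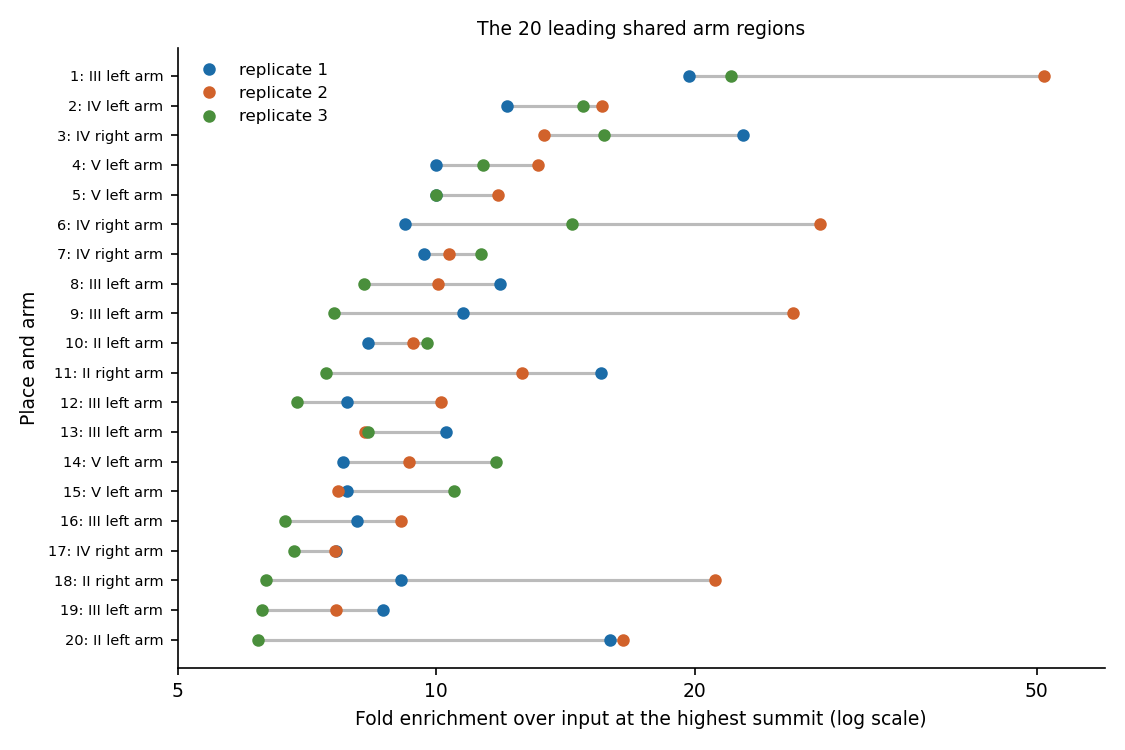
Fold enrichment over input (log scale, horizontal axis) of the 20 leading shared arm regions, in order from the top, with a point for each replicate and a grey line over their range. The first region, on the left arm of III, reaches 50.9 in replicate 2 against 19.7 and 22.0 in replicates 1 and 3, and at the bottom a region of the left arm of II has 6.20 in replicate 3 against 15.9 and 16.5.

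Arm peaks reached the left tips of the 4 chromosomes, where telomeric repeats lie, while the distance to the right tips was not known. The outermost region was shared at 6 of 8 ends, and its median fold over those 6 was 9.60, 22.6 and 9.0 in replicates 1, 2 and 3. All 4 left ends had a peak in each list, in regions starting 10 to 84 bp from the end. At the left end of II (84 to 380) fold was 8.33, 9.40 and 9.75, and at that of V (14 to 289) it was 10, 13.1 and 11.3. At the left ends of III and IV replicate 2 was far higher, with 26.0 on III against 10.7 and 7.60 in replicates 1 and 3, and 39.8 on IV against 11.2 and 6.0. Pileup differed less there, with 42, 51 and 37 tags on III and 44, 67 and 35 on IV. Background in replicates 1, 2 and 3 was 4.47, 1.41 and 5.01 times genome-wide on III and 4.47, 1.0 and 6.27 times on IV. It was thus lowest where the fold was highest. The right end was taken as the last peak of any list, since chromosome lengths were not used. The last regions of III (13783496 to 13783684) and IV (17493587 to 17493781) were shared, with folds of 5.62, 19.2 and 8.25 on III and 9.20, 28.0 and 14.4 on IV. On V the last region (20923968 to 20924135) had folds of 6.57 in replicate 1 and 4.50 in replicate 3 and no peak in replicate 2, and on II the last (15186533 to 15186658) was in replicate 1 alone, with a fold of 5.0. End regions stood apart from their neighbours except on the right of II and IV. The next region was 15962, 10540, 15943 and 103067 bp away on the left of II, III, IV and V, and 65088 and 471416 bp away on the right of III and V.

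Many shared arm regions lay in clusters. Counting as a run 3 or more shared regions spaced no more than 10 kb apart, 45 of the 111 (40.5%) lay in 11 runs, the longest of 5 regions. In the centres 63 of 124 (50.8%) lay in 11 runs, the longest being the block on IV with 21 regions. Without the block 42 of 103 shared centre regions (40.8%) lay in 10 runs, a share close to that of the arms, from which no run was removed. Of the arm runs 4 were in the right arm of V, with 17 shared regions, and 3 in its left arm, with 12. The right arms of II and IV had none. The inner segment of the right arm of V held 4 runs, at 16707209 to 16709406, 17115465 to 17132081, 17308781 to 17311555 and 17384193 to 17394267. The longest of these, 16617 bp, had 15, 5 and 20 peaks with median folds of 6.62, 6.69 and 5.17 in replicates 1, 2 and 3. It contained the widest shared arm region, 6623 bp from 17119975 to 17126597, with folds of 6.78, 8.46 and 5.43 and highest summits 3482 bp apart. The run at 17384193 had lower median folds of 5.50, 3.0 and 4.05.

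On the left arm of V the run at 265013 to 267266 had median folds of 6.57, 5.0 and 9.40, the run at 3434674 to 3441081 had 6.99, 4.62 and 4.03, and the run at 4333175 to 4336678 had 7.49, 6.69 and 5.40. Single runs lay at 4641720 to 4644751 on II, at 1252074 to 1260657 on III and at 3206885 to 3209370 on IV, with median folds of 3.78, 4.25 and 3.56 on II, 2.94, 4.37 and 3.33 on III and 4.0, 4.92 and 3.59 on IV. These 3 were the lowest of the arm runs in replicates 1 and 3.

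The run on the right arm of III, at 10904177 to 10909882, was unlike the other arm runs. All of its 5 regions were on low background in each list, with medians of 1.28, 1.24 and 1.25 times the genome-wide level. The other 10 arm runs had medians of at least 3.64 in every list. Low medians were also seen in centre runs, at 11756732 to 11762102 on II (1.38, 1.24 and 1.34) and at 6087783 to 6116956 on IV (1.49, 1.41 and 1.41). Over 5706 bp the run on III held 7, 8 and 14 peaks with median folds of 6.16, 5.33 and 5.97 in replicates 1, 2 and 3. The highest folds in it were 8.05, 6.67 and 11.5. These 5 made up much of the 14 shared arm regions on low background in all lists.

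The other 9 of those 14 lay scattered. On the right arm of II they started at 12052818, 13819889, 14407698 and 14489301, on the left arm of III at 647322, on the left arm of IV at 2726573, on the left arm of V at 4508172 and 5540252, and on the right arm of V at 16721227. The 14 had median folds of 6.08, 6.47 and 5.06 on median pileups of 10.5, 11 and 9.5 tags. Their folds were thus close to those of the 80 on high background, at 6.16, 5.25 and 5.0, while the pileups of those 80 were 35.5, 36.5 and 33.5 tags. At 5540252 fold was 8.0, 11 and 4.89, at 4508172 it was 6.0, 8.50 and 7.79, and at 647322 it was 7.78, 6.44 and 5.24.

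At the edges of the centres, the nearest arm region was 32818 to 389644 bp outward of the 8 edges (median 105895 bp) and the nearest centre region 12924 to 99698 bp inward (median 52929.5 bp). Of the 8 nearest arm regions 3 were shared, and the highest fold in each of the 8 ran from 4.19 to 50.9 (median 5.56). Of the 8 nearest centre regions 0 were shared, and the highest fold in each ran from 3.71 to 6.0 (median 5.0).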

How the data were processed

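Each LAG-1 ChIP replicate had 1 peak list, called separately by the authors with MACS 2.1.1.20160309 against the same input, per the file headers, on ce10, per the submitters' processing notes. No label or header used here names the aligner. Tags were 50 bp and single-end, at most 1 per position was kept, and the larger library was sampled down to the smaller, per the file headers. Kept tags were 15.5%, 9.37% and 37.6% of those given to the peak caller in replicates 1, 2 and 3, with fragment lengths of 77, 125 and 55 bp. The deposited pileup is a signal at the summit, not scaled between libraries. The deposited fold is the authors' ratio of pileup to local input. The deposited −log10 p-values and q-values came from the authors' peak caller.

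Local background was recovered as pileup plus 1, over fold, minus 1, and divided by the genome-wide level of 0.671, 0.708 and 0.798 tags. A Poisson p rebuilt from it lay within 0.05 of the deposited −log10 p for 100% of arm summits. A peak with several summits was represented by the summit highest in fold. Lists were joined and compared with Python 3.11.15, pandas 2.3.3, NumPy 2.4.6 and SciPy 1.17.1, and the scripts were tested on simulated lists. The input entered only through the lists. The end of the last peak stood for chromosome length, so right arms may be slightly longer than taken here. The replicate was the unit of every test, and the p-values measure the spread between 3 replicates, which the series calls independent biological ones. No interval was identical between lists. Named were the 20 leading shared arm regions, the outermost regions, the runs, the widest shared regions and the regions nearest each edge. The regions of low background in all lists and those of most unlike fold were added after their values were seen. Members, lists and rules were chosen with earlier results of these data known. The 5 segments, the division by background and the removal of the block on IV were chosen after seeing the data.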

Additional observations from a re-analysis of the deposited data

How the results depend on the processing

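Density of arms over centres (log2) turned to 0.14 with peaks within 10 kb counted once and to 0.05 without the block on IV (0.0488), which was added after seeing the data, and lay between -0.19 and -0.12 with each replicate left out. The log2 ratio of median fold, near 0, took the other sign at a false discovery rate below 0.001 (0.0142), with lists of equal length (0.0108), with peaks within 10 kb counted once (0.0632) and without the block (0.0438), and lay between -0.0144 and 0.0133 with each replicate left out. The log2 ratio of background was -0.0056 without the block and 0.24 to 0.75 with each replicate left out. The share of peaks in shared regions, arms minus centres, was -14.9 points on background below 2 times the genome-wide level, -1.73 with edges 500 kb towards the ends, -4.37 with peaks within 10 kb counted once, and -5.54 to 4.46 with each replicate left out, lowest without replicate 3. Shared arm regions numbered 16 on low background alone, 67 with peaks within 10 kb counted once and 38 at 50% reciprocal overlap, and 129 to 158 in the remaining pair of lists. The mean correlation of log2 fold was 0.485 on low background alone and 0.852 with pileup, and 0.57 to 0.63 with 1 list left out. The cause of these shifts was not tested, except that fewer lists or peaks change a count by construction. The other 56 planned values kept direction or stayed within 1.5 times or 1 SD. Of the 20 leading regions 12 were shared at 50% reciprocal overlap, 2 on low background alone and 16 without 50 kb at each end, where the end regions themselves are removed. Without the block, also added, the density ratio on IV was 0.979 and 40.8% of shared centre regions lay in runs. The step at the inner segments had a mean ratio of 1.37 without the right arm of V and 1.13 with peaks within 10 kb counted once. Between groups of samples no paired analysis was possible because only the ChIP group has replicates, while arms and centres were paired within each replicate. Pileups of about 10 tags limit the lower peaks, and backgrounds under 1 tag the highest folds of replicate 2.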
